A study of Rattus norvegicus with 20 samples.

Results

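The genes described here had more RNA after a seizure-inducing stimulation in both the dorsal and the ventral subiculum of the rat. They were chosen by their measured values. A gene was taken when its mean over all 20 libraries was at least 1 CPM (counts per 1000000 counts of the library), when the lowest preconditioned dorsal library lay above the highest dorsal control, and when the same held in the ventral libraries. Of 32883 gene IDs, 13429 had a mean of at least 1 CPM, and 89 of these (0.663%) met the range conditions. Whatever the other region showed, the dorsal condition was met by 1.69% of them and the ventral condition by 3.39%. The rule leaves out 2 of those, so 87 genes are described. The mirrored rule, with every preconditioned library below every control in both regions, found 21 genes.

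The subiculum is the main output field of the hippocampus. It receives CA1 fibres and direct input from the entorhinal cortex through the perforant pathway, and its dorsal and ventral parts project to different targets. Strong synchronous firing switches on a first wave of activity-dependent genes within minutes, followed by slower changes in neurons and glia that include secreted factors, cytoskeleton and genes of reactive astrocytes and microglia. In seizure research, preconditioning usually means a milder insult given ahead of a later, stronger one.

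The tissue came from wild-type Wistar rats aged 3 months and was laser-microdissected from sections of frozen brain. The groups were dorsal control, dorsal preconditioning, ventral control and ventral preconditioning, with 5 libraries each. The treated rats were sampled 24 hours after the protocol, which the series title describes as acute seizures from electric stimulation of the perforant pathway. The labels do not say what the control rats underwent, or whether dorsal and ventral samples with the same number came from 1 rat, so p-values measure the spread between these libraries, which may be partly technical. Total counts ran from 3087146 to 20463678 per library, and 3 counts corresponded to 0.147 to 0.972 CPM. The chi-square per degree of freedom between 2 libraries of a group lay between 3.37 and 60.9 over 40 pairs. No pair within a group thus looked like a library deposited again, and pairs across groups were not compared.

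The deposited table gives Ensembl rat gene IDs without names. None of them matched the reference table of 47357 rat genes (0 matches). The genes are therefore given by ID, their functions and promoters are not described, and the tissue was not checked against cell type markers. In tissue of mixed cells, a change in the number of cells of a type and a change in RNA per cell cannot be told apart.

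Together the 87 genes took 1.08% ± 0.0445 (SD, n = 5) of the counts in dorsal controls and 1.59% ± 0.0958 after preconditioning. In the ventral subiculum their share was 1.16% ± 0.0365 in controls and 1.94% ± 0.0790 after preconditioning. The shares of single libraries ran from 1.01% to 1.13% and from 1.48% to 1.73% in the dorsal groups, and from 1.11% to 1.21% and from 1.83% to 2.02% in the ventral groups. The choice of genes fixed the direction of these differences, so no test is given.

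**Figure D1:**
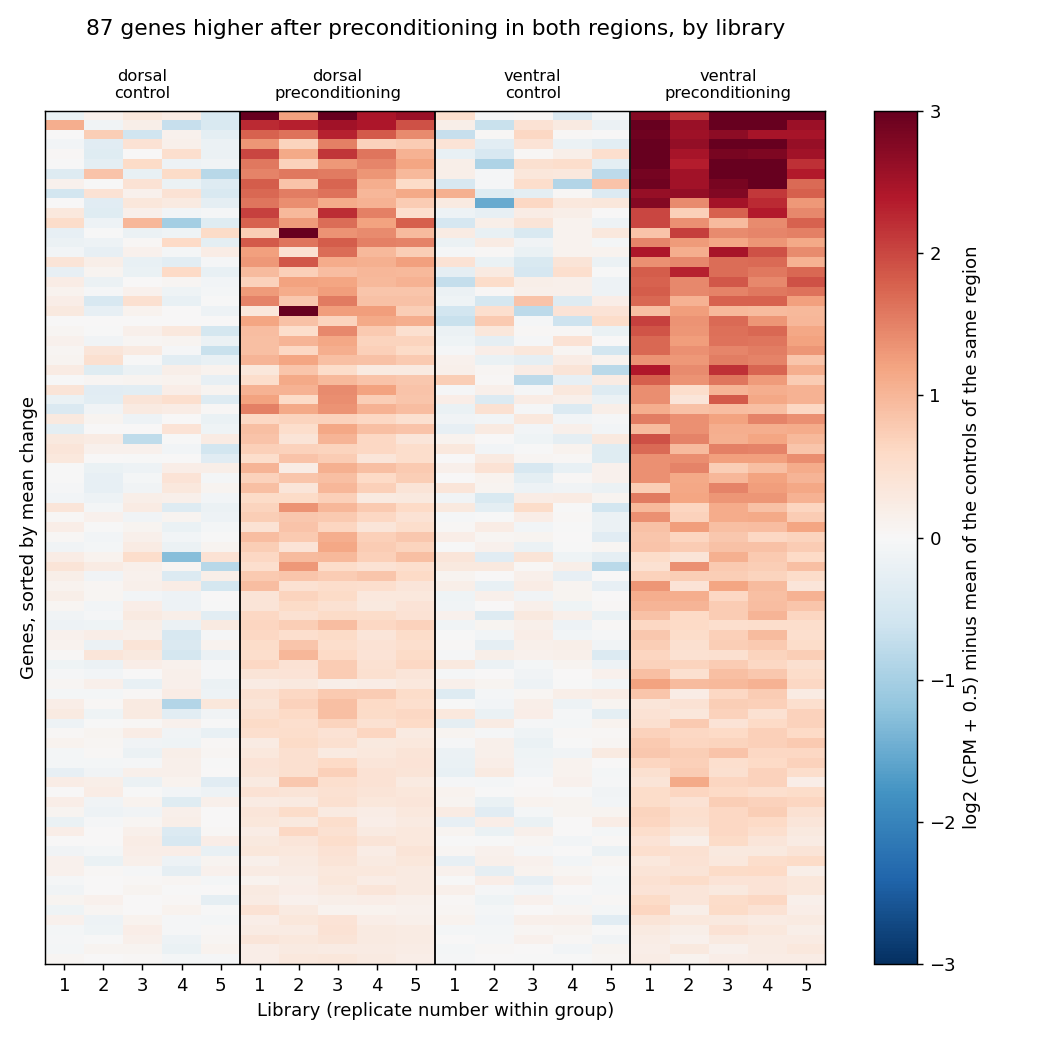
Each row is 1 of the 87 genes and each column 1 of the 20 libraries. Colour shows log2 (CPM + 0.5) minus the mean of the 5 controls of the same region, with colours saturated beyond 3. The rows of the ventral preconditioned block are mostly darker than those of the dorsal one, and 2 isolated dark cells mark genes that stood high in dorsal preconditioning 2.

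The genes covered a wide range of abundance. Mean CPM ran from 1.16 to 1557 with a median of 45.0, against a median of 24.6 for all 13429 genes with at least 1 CPM. CPM depends on transcript length as well as on RNA amount, so these figures describe how well each gene was counted. Of the 87, 18 had a mean below 10 CPM, 41 lay between 10 and 100 CPM, and 28 lay at or above 100 CPM.

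Most increases were modest. By the ratio of group means, 26 genes were at least 2-fold higher after preconditioning in the dorsal region, 23 were between 1.5-fold and 2-fold higher, and 38 were at most 1.5-fold higher. In the ventral region the corresponding numbers were 41, 24 and 22. At least 2-fold differences occurred in both regions for 25 genes, in the ventral region alone for 16, in the dorsal region alone for 1, and in neither for 45. The median ratio was 1.58 in the dorsal and 1.92 in the ventral region, and the smallest ratios were 1.13 and 1.15.

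Many genes passed the range condition narrowly. In 68 of the 87, the lowest preconditioned library lay within 1.2 times the highest control in at least 1 region. The gene closest to the limit on the inside had 45.4 CPM in its lowest dorsal preconditioned library and 45.3 CPM in its highest dorsal control. The gene closest on the outside had 249.9 and 250.0 CPM. At the abundance limit, the lowest mean inside was 1.16 CPM and the highest mean just outside was 0.981 CPM. Scaling moved genes across the limit as well. With TMM-adjusted library sizes (trimmed mean of M-values, which corrects for a few abundant genes taking reads), 72 genes met the conditions and 66 of the 87 were among them.

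Fold changes were also estimated with edgeR's quasi-likelihood fit, as a description, because the genes were chosen on these same contrasts. In the dorsal comparison 83 of the 87 passed the filter on low counts, and the log2 fold change had a median of 0.56 and ran from 0.11 to 4.39. There 20 passed an adjusted p-value of 0.05, where 0.213% of all 13647 genes tested were called higher. Without dorsal preconditioning 3 the number was 9, and without dorsal preconditioning 1 it was 12. The share of all genes called in those fits is not given, so whether all genes moved alike cannot be read from these counts. DESeq2 called 49, where it called 0.726% of all genes higher, and edgeR called 41 with all 20 libraries in one fit, where 0.497% were called higher. In the ventral comparison 86 passed the filter, with a median of 0.96 and a range from 0.22 to 6.18, and 79 were called, where 2.93% of 13291 genes were called higher. All 20 genes called in the dorsal comparison were also called in the ventral one, and 8 were called in neither. These shares follow from how the genes were picked and are given only for orientation.

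Among the 82 genes that passed the filter in both comparisons, ENSRNOG00000024028 had the largest rise common to both regions, taking the smaller of its 2 log2 fold changes. In dorsal controls 1 to 5 it measured 0.101, 0.250, 0.360, 0.311 and 0 CPM, from at most 5 counts per library. In the dorsal preconditioned libraries it measured 5.21, 1.08, 8.22, 3.25 and 3.67 CPM. Dorsal preconditioning 2 was the lowest treated library and still stood above every control. Ventral controls measured 0.648, 0.286, 0.325, 0.0977 and 0.265 CPM, from at most 3 counts per library. Ventral preconditioned libraries measured 4.95, 3.15, 10.1, 9.39 and 6.58 CPM. The levels of the regions overlapped within each condition. The log2 fold changes were 4.39 (SE 0.64) in the dorsal and 4.75 (SE 0.46) in the ventral region.

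ENSRNOG00000060635 followed among these 82, with log2 fold changes of 2.13 (SE 0.29) in the dorsal and 3.49 (SE 0.28) in the ventral region. Its dorsal controls measured 16.1, 6.74, 8.27, 4.35 and 5.21 CPM and its dorsal preconditioned libraries 36.3, 39.0, 44.2, 41.7 and 29.1 CPM. Its ventral controls measured 1.94, 0.858, 2.44, 2.10 and 1.41 CPM and its ventral preconditioned libraries 20.9, 12.7, 24.2, 26.1 and 12.4 CPM. All 5 ventral controls lay below all 5 dorsal controls. The ventral preconditioned libraries, although far above their controls, stayed below the dorsal preconditioned ones. Its smaller ratio of group means was 4.68, and 4 of the 5 genes that missed the filter in a comparison had a larger one.

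**Figure D2:**
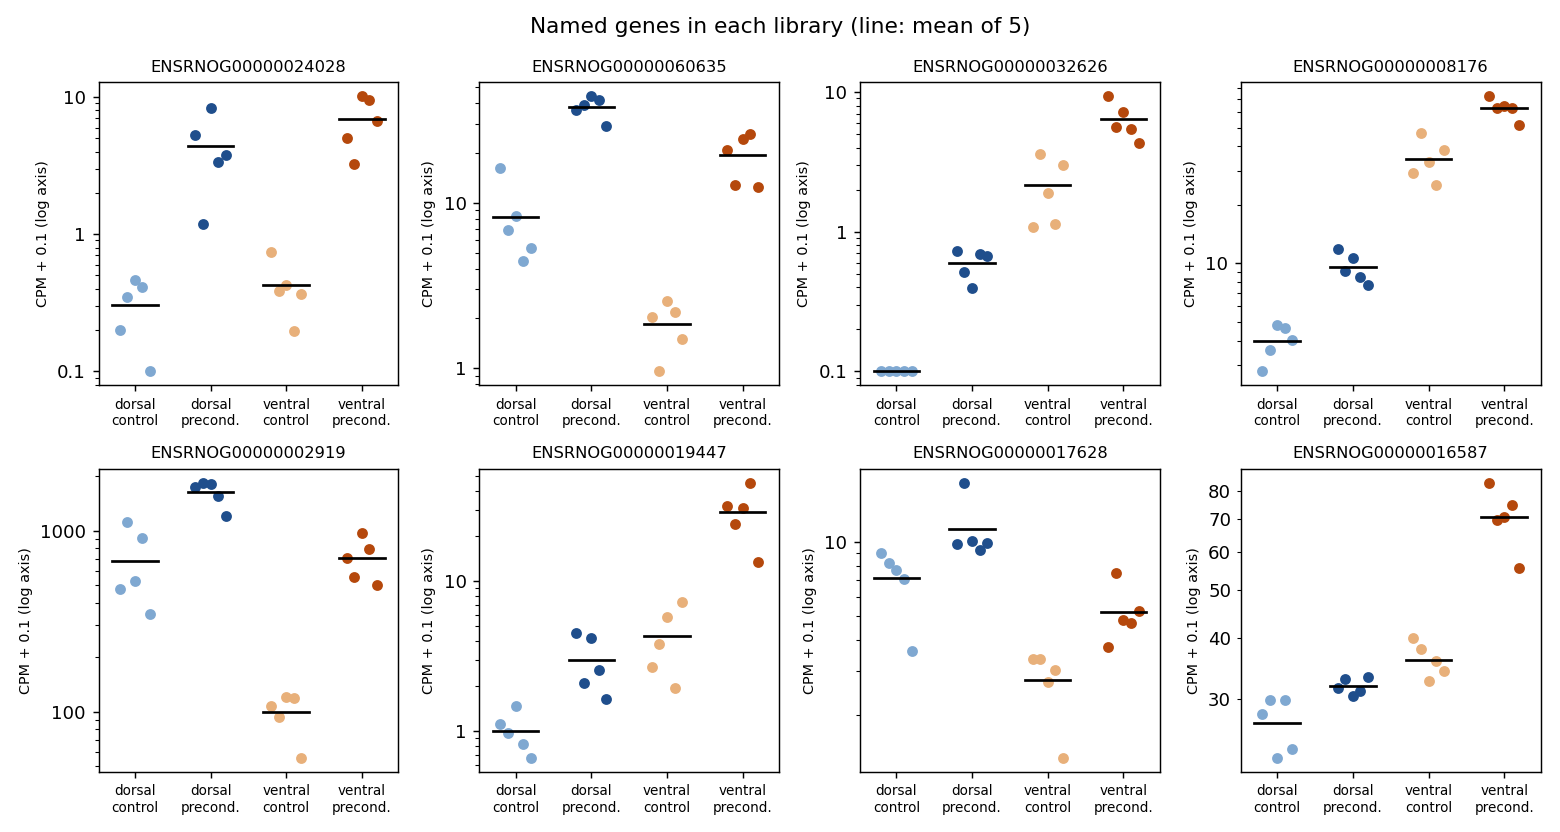
CPM + 0.1 on a log axis in each of the 20 libraries for 8 genes. Points are libraries in order of replicate number and lines are means of 5. In each panel the preconditioned points of a region lie above its controls, while the order of the regions differs between genes.

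The size of the rise was compared between the regions. Of the 82 genes that passed the filter in both comparisons, 75 had the larger log2 estimate in the ventral region and 7 in the dorsal region, with a median ventral minus dorsal difference of 0.33. By the ratio of mean CPM, taken over all the genes described and without TMM scaling, the split was 67 ventral and 20 dorsal. The split was thus less uneven by that measure, which also covers the genes that missed the filter. No share of all genes is given for either split. Across the 82 genes Pearson's r between the log2 estimates of the regions was 0.806, and Spearman's rho was 0.808. The points share libraries and were kept only where both estimates were positive, so the correlation is a description.

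**Figure D3:**
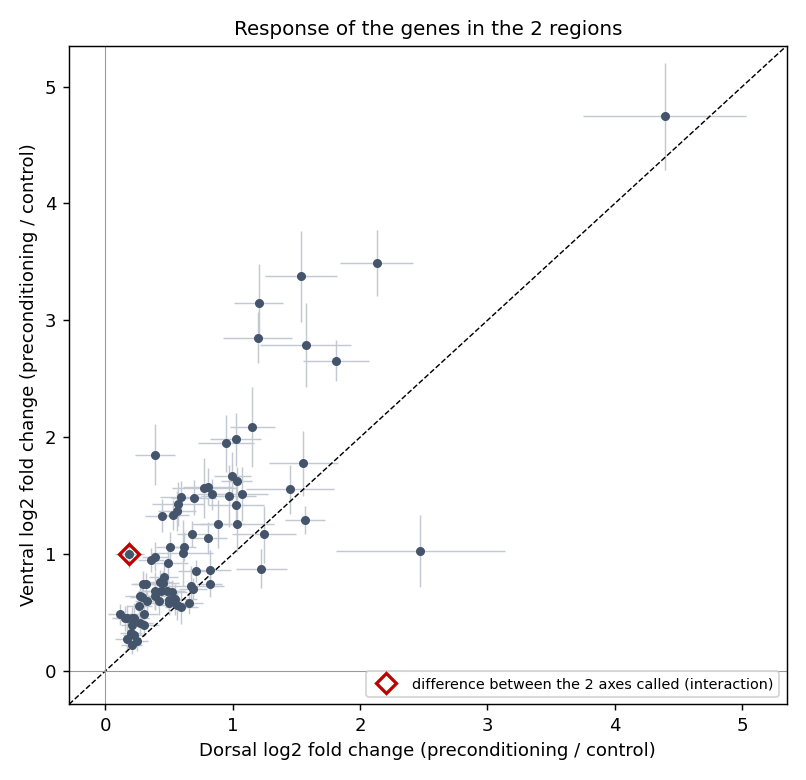
Log2 fold change (preconditioning over control) in the dorsal region on the x axis and in the ventral region on the y axis for 82 genes, with bars of 1 SE. The dashed line marks equal responses, 75 points lie above it, and the red diamond is ENSRNOG00000016587.

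A different response of a gene in the 2 regions was tested by the interaction term of a fit to the 20 libraries. The rule set the sign of each response and not their difference, but both responses entered the choice of genes, so this test is no independent support. By edgeR's quasi-likelihood test, 1 of the 87 genes passed an adjusted p-value of 0.05, where 0.0781% of 14087 genes tested did. An unadjusted p-value under 0.05 was reached by 38 of the 87, where 948 of the 14087 genes tested (6.73%) reached it. Of the 38, 37 had the larger rise in the ventral region. Of the 948, 489 (3.47% of the 14087) had the more positive response there. The estimate was positive, toward the ventral region, for 76 genes and negative for 11, and the median was 0.33 against -0.0042 for all genes tested. The number called depended on the fit. DESeq2 called 9 of the 87, where it called 0.39% of all genes. With libraries paired by replicate number within each condition, edgeR called 8, where 0.44% of all genes were called. With DESeq2 size factors in edgeR it called 0 (0.071% of all genes), and without the low-count filter also 0 (0.0368%), while 37 of the 87 had an unadjusted p-value under 0.05 in each.

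ENSRNOG00000016587 was the gene called. It measured 27.9, 29.7, 22.6, 29.7 and 23.6 CPM in dorsal controls and 31.5, 32.8, 30.2, 31.0 and 33.1 CPM in dorsal preconditioned libraries. Its ventral controls measured 39.8, 37.9, 32.5, 35.7 and 34.0 CPM and its ventral preconditioned libraries 82.9, 69.6, 70.7, 74.5 and 55.5 CPM. The dorsal groups were separated by a narrow gap and the ventral groups by a wide one. The log2 fold change was 0.19 (SE 0.12) in the dorsal and 0.998 (SE 0.11) in the ventral region, and the log2 difference of the responses was 0.80 (SE 0.15, adjusted p = 0.0366, edgeR). The call was lost when any 1 of 15 libraries was left out and in 17 of 25 alternatives, over which the adjusted p ran from 0.00146 to 0.106. The log2 difference itself stayed between 0.75 and 0.87 in these alternatives. The call was kept without dorsal control 3, dorsal control 5, ventral control 2, ventral preconditioning 2 or ventral preconditioning 5.

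The regional level of the genes in controls is a contrast that the rule did not use directly, although it comes from the same libraries. The rule did read the highest control of each region, so it favoured genes whose controls varied little. Less spread within groups can raise the share called here and, below, the share of control ranges that do not overlap. Here 82 of the 87 passed the filter. By edgeR's quasi-likelihood test 34 of them (41.5%) differed between the regions at an adjusted p-value of 0.05, where 25.7% of 13509 genes tested did. The fit took same-numbered samples of the regions as independent, although in controls they shared deviations from the group means. Of the 34, 23 were higher in the ventral region (28.0% of the 82, where 11.2% of all genes were called) and 11 were higher in the dorsal region (13.4%, where 14.5% were called). The median log2 ratio of ventral over dorsal was 0.16, against 0.02 for all genes tested. The 87 genes were also counted more deeply than the average gene, as given above. The part of depth and of the choice of genes in the share called was not tested.

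The preconditioned libraries helped to choose the genes as well. The 5 that missed the filter in controls passed it here only with the libraries in which they were high. The values after preconditioning are therefore a description, and nothing is read from their distance to all genes. All 87 genes passed the filter and 57 (65.5%) differed between the regions, where 26.7% of 13640 genes tested did. Among the 82 that were also tested in controls, 54 (65.9%) differed. In the ventral region 50 were higher (57.5%, where 12% of all genes were called), and 7 were higher in the dorsal region (8.05%, where 14.7% were called). The median log2 ratio was 0.45, against 0.02 for all genes tested. The ranges of the regions did not overlap for 51.7% of the 87 with every ventral library above every dorsal one, where 7.33% of the 13429 genes did so. Every dorsal library lay above every ventral one for 6.90%, where 11.9% of the 13429 genes did so. In controls the shares of the 87 were 31.0% (where 9.84% of the genes did so) and 9.20% (where 9.31% did so).

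The calls of the conditions were set side by side for the 82 genes tested in both. The share of the 13372 genes tested in both conditions that fell in the same class is given beside the count of each class. The choice of genes bears on these counts too. In both conditions 23 genes were higher in the ventral region (7.4% of all genes) and 6 were higher in the dorsal region (10.5%). A further 24 genes were called higher in the ventral region after preconditioning and not called in controls (4.49%), and 5 were called higher in the dorsal region in controls and not called afterwards (3.96%). The remaining counts were 1 gene higher in the dorsal region after preconditioning alone (4.28%) and 23 genes called in neither condition (65.5%). A call in one condition and not in the other does not show a change, which the interaction tests. The log2 ratio of ventral over dorsal was larger after preconditioning for 72 of the 82, and it went from negative to positive for 19 and from positive to negative for 1.

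**Figure D4:**
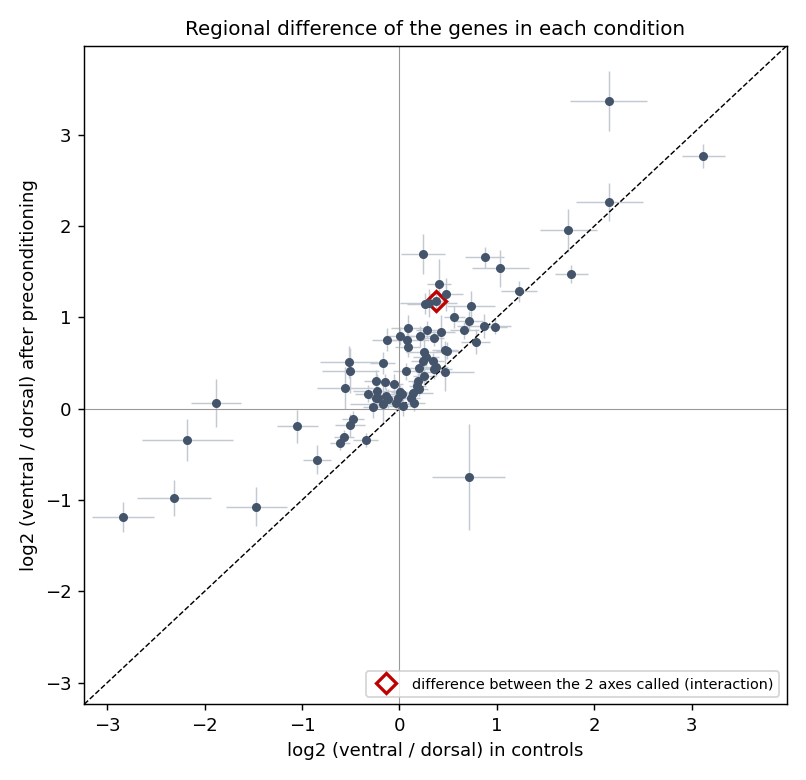
Log2 ratio of ventral over dorsal in controls (x axis) and after preconditioning (y axis), with bars of 1 SE. ENSRNOG00000032626, which had 0 counts in dorsal controls, is left out, and most other points lie above the dashed line of equal ratios.

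ENSRNOG00000032626 and ENSRNOG00000008176 were the genes most strongly higher in the ventral region in controls. ENSRNOG00000032626 had 0 counts in all 5 dorsal controls, which allows up to 0.0446 CPM (3 counts over the summed group; counting error only). Its ventral controls measured 0.972, 3.53, 1.79, 1.03 and 2.91 CPM, at least 45.7-fold higher (adjusted p = 0.000213, edgeR). The p-value is a description, because the gene passed the low-count filter in this comparison only through the ventral libraries, where it was high. After preconditioning ENSRNOG00000032626 measured 0.628, 0.417, 0.294, 0.597 and 0.571 CPM in dorsal libraries, from 30 counts in all. Its ventral libraries then measured 9.26, 5.49, 7.06, 5.33 and 4.20 CPM. The regions stayed apart in both conditions, and after preconditioning the log2 ratio was 3.58 (SE 0.29, adjusted p = 9.35e-07, edgeR). Its dorsal rise was at least 11.7-fold against the same limit.

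ENSRNOG00000008176 measured 2.69, 3.49, 4.75, 4.56 and 3.95 CPM in dorsal controls and 29.2, 46.5, 33.0, 25.3 and 38.3 CPM in ventral controls. The lowest ventral control was thus above every dorsal control by a wide gap, with a log2 ratio of 3.12 (SE 0.22, adjusted p = 4.28e-07, edgeR). After preconditioning its dorsal libraries measured 11.8, 9.01, 10.6, 8.36 and 7.66 CPM and its ventral libraries 72.4, 62.8, 64.3, 63.1 and 51.7 CPM. The log2 ratio was then 2.77 (SE 0.13, adjusted p = 1.26e-08, edgeR). It was among the 7 genes with the larger estimate in the dorsal region, 1.22 (SE 0.20) against 0.88 (SE 0.17), a difference that did not pass the interaction test (log2 difference -0.35, SE 0.25, adjusted p = 0.879, edgeR).

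ENSRNOG00000002919 and ENSRNOG00000060635 were the genes most strongly higher in the dorsal region in controls. ENSRNOG00000002919 measured 474, 1121, 528, 914 and 349 CPM in dorsal controls and 108, 94.1, 121, 119 and 55.5 CPM in ventral controls. The control ranges did not overlap, and the log2 ratio was -2.83 (SE 0.32, adjusted p = 1.96e-05, edgeR). After preconditioning it measured 1745, 1839, 1819, 1558 and 1209 CPM in dorsal libraries and 706, 554, 975, 790 and 500 CPM in ventral libraries. The log2 ratio was then -1.18 (SE 0.16, adjusted p = 7.62e-05, edgeR). The ventral preconditioned libraries reached the range of the dorsal controls. The log2 difference of its responses was 1.65 (SE 0.37), which did not pass the threshold (adjusted p = 0.0928, edgeR).

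For ENSRNOG00000060635, whose values are given above, the log2 ratio was -2.32 in controls (SE 0.38, adjusted p = 0.000469, edgeR) and -0.98 after preconditioning (SE 0.19, adjusted p = 0.00175, edgeR). Dorsal control 1, at 16.1 CPM, was the highest of its group. Without it the ratio in controls was -1.90. The log2 difference of its responses was 1.36 (SE 0.44, adjusted p = 0.446, edgeR).

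After preconditioning, ENSRNOG00000019447 followed ENSRNOG00000032626 among the genes higher in the ventral region. It measured 4.40, 2.002, 4.11, 2.46 and 1.55 CPM in dorsal preconditioned libraries and 31.8, 24.1, 30.7, 45.2 and 13.4 CPM in ventral ones, a log2 ratio of 3.37 (SE 0.33, adjusted p = 4.48e-06, edgeR). Its controls measured 1.01, 0.874, 1.37, 0.726 and 0.565 CPM in the dorsal and 2.59, 3.72, 5.69, 1.86 and 7.23 CPM in the ventral region. The regions were apart in controls too, with a log2 ratio of 2.15 (SE 0.39, adjusted p = 0.00109, edgeR).

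ENSRNOG00000017628 was, after ENSRNOG00000002919, the gene most strongly higher in the dorsal region after preconditioning. It measured 9.69, 17.2, 9.98, 9.16 and 9.78 CPM in dorsal preconditioned libraries and 3.66, 7.34, 4.70, 4.57 and 5.13 CPM in ventral ones, a log2 ratio of -1.07 (SE 0.21, adjusted p = 0.00184, edgeR). Library 2 was the highest in both regions. Without dorsal preconditioning 2 the ratio was -0.88. Its controls measured 8.87, 8.11, 7.55, 6.94 and 3.51 CPM in the dorsal and 3.24, 3.24, 2.60, 2.93 and 1.23 CPM in the ventral region, a log2 ratio of -1.47 (SE 0.31). Its log2 fold change was 0.61 (SE 0.24, adjusted p = 0.501, edgeR) in the dorsal and 1.01 (SE 0.28, adjusted p = 0.0571, edgeR) in the ventral region. Neither passed the threshold, but the gene was chosen on these 2 contrasts, so their p-values are a description only. The ventral estimate was about as large as the regional gap after preconditioning.

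Single libraries weighed on the genes unequally. In the dorsal preconditioned group, library 3 gave the highest value for 43 of the 87 genes and library 5 the lowest for 28. In the ventral preconditioned group, library 1 gave the highest value for 30 genes and library 5 the lowest for 34. A library far from the other 4 of its group (by Dixon's ratio above 0.71, which chance exceeds in about 1 of 20 groups) was found in 22 of 347 groups, and 5 of the 22 were high values in dorsal preconditioning 2. The widest gap, chosen after the values were seen, was that of ENSRNOG00000010208. It measured 17.4 CPM in dorsal preconditioning 2 from 209 counts, with 1.17 to 2.65 CPM in the other 4 libraries. Its dorsal preconditioned mean was 5.12 ± 6.91 CPM (SD, n = 5) and 2.04 ± 0.733 CPM (SD, n = 4) without that library, against 0.839 ± 0.196 CPM in dorsal controls (n = 5).

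The 5 genes outside the set whose log2 CPM most resembled the mean profile of the 87 had Pearson r values from 0.905 to 0.931 over the 20 libraries, which share the same groups. All 5 missed the rule because their dorsal ranges overlapped.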

How the data were processed

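RNA was measured by poly(A) RNA-seq of laser-microdissected tissue with TruSeq Stranded mRNA LT libraries, per the labels' protocols. The authors deposited raw counts per gene. The submitters' processing notes name STAR, DESeq2 and the build Rnor_5.0. The annotation, the counting tool and the use of strand are not given in the sources used here, so reads of near-identical or overlapping genes may be split in unknown ways. Groups and replicate numbers came from the sample titles. Columns of treated libraries start with e where titles start with p. They were matched by number and region, which assumes that both letters name one treatment.

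The genes, lists and tests were chosen with earlier results of these data known. CPM was computed as count divided by column total. Genes were tested on the whole table with edgeR 4.0.16 in R 4.3.3 (filterByExpr, TMM, glmQLFit with robust=TRUE, glmQLFTest, Benjamini-Hochberg adjustment over all genes tested, 0.05). Each pairwise comparison used its 10 libraries and the interaction all 20, without pairing libraries by number. The standard error was the log2 fold change divided by the square root of F. The scripts were tested on simulated data.

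No ID had a name, so the planned naming rule was narrowed to 2 genes per direction and comparison, the planned marker and pathway lists were not scored, and no sequence is shown. In controls, same-numbered samples of the regions shared their deviations from the group means over 14087 genes. The r ran from 0.200 to 0.393 in all 5 pairs, so those samples were not independent. Whether they came from 1 rat is not given in the labels. The reported p-values between regions and of the interaction treat them as independent, and counts with the replicate number as a block are given in the last section. After preconditioning 4 of 5 pairs exceeded 0.1. For preconditioning against control the number was 3 of 5 pairs in the ventral and 0 in the dorsal region. Alternatives were DESeq2 1.42.0, DESeq2 size factors, other filters, the replicate number as a block, a joint fit of all 20 libraries, and leaving out each library in turn. Figures were drawn with matplotlib 3.10.9.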

Additional observations from a re-analysis of the deposited data

Results flagged for a closer look

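For the 8 genes named by the rule, 31 groups of 5 libraries with differing values were searched for a library far from the rest, and 1 held one, where chance gives about 1 in 20. ENSRNOG00000017628 measured 17.2 CPM in dorsal preconditioning 2. ENSRNOG00000010208, which was added because of its wide gap and so is not set against chance, measured 17.4 CPM in dorsal preconditioning 2 and 3.52 CPM in ventral preconditioning 2, the highest of each group. No cause of these values was tested. For ENSRNOG00000016587 the responses of the regions differed by a log2 value of 0.80 in the interaction test, ventral minus dorsal. Both responses entered the choice of genes, so this call is no independent support. It was lost in 17 of 25 alternatives.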

How the results depend on the processing

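Of 114 alternative counts, 86 stayed within 1.5 times the reported one. The tally includes counts from the treatment contrasts on which the genes were chosen, so it is a description. Requiring the lowest preconditioned library to be at least 1.2 times the highest control left 19 of the 87 genes. Leaving out single libraries gave 89 to 128. Fewer libraries loosen the range condition, so a gene could be lost only through the limit on mean CPM. DESeq2 size factors gave 71 genes. The dorsal description of 20 called genes became 49 with DESeq2 and 41 with all 20 libraries in one fit, and 9 to 23 with single libraries left out. For the interaction, DESeq2 called 9 of the 87. It was 0 with DESeq2 size factors in edgeR and 0 without the low-count filter (37 at an unadjusted p-value under 0.05 in each), and 0 to 4 with single libraries left out. With the replicate block it was 8, including the 1 gene reported. The block changed the other counts by less than 1.5 times, to 14 dorsal, 84 ventral, 42 for the regions in controls and 59 after preconditioning. Calls between regions stayed between 27 and 42 in controls and between 51 and 60 after preconditioning over 16 alternatives each. The 12 other values of single named genes kept direction and side of the threshold in all 188 alternatives. Where no share of all genes is given above for the same fit, these counts do not show whether all genes moved alike. The causes of these shifts were not tested. Depth limits the genes near 1 CPM, where 3 counts reach 0.972 CPM in the smallest library.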
